A study of Mus musculus with 12 samples.

Results

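Marginal zone B cells from Trpm5-/- mice were compared after 4 h with lipopolysaccharide (LPS, 10 µg/mL) and after 4 h with anti-IgM antibody (10 µg/mL). The comparison rests on 4 of the 12 libraries in the series, 2 per stimulus, and on the 10797 of 24346 gene symbols that reached at least 1 FPKM in 2 or more of the 12 libraries. The other libraries are 2 of Trpm5-/- cells kept for 4 h without stimulus and 2 each of wild-type cells under LPS, anti-IgM and no stimulus. All of the libraries set against each other first are thus Trpm5-/- libraries, while the wild-type ones are set against them only where the genotypes are compared. They also enter the expression filter and the estimate of spread behind every p-value. Which stretch of Trpm5 was deleted, and the strain and age of the mice, were not stated in the sources used. Whether libraries of the same group stem from different mice or cultures was not labelled either, so p-values measure only how far these libraries spread, and that spread may be technical.

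Marginal zone B cells lie beside the marginal sinus of the spleen and respond quickly to blood-borne microbial products. LPS binds the complex of Toll-like receptor 4 (TLR4) and MD-2, whose adaptors MyD88 and TRIF lead to NF-kB, MAP kinases and interferon regulatory factors. Anti-IgM clusters B cell receptors, and this activates Lyn, Syk and Btk, releases calcium, and drives the calcineurin-NFAT, MAP kinase and PI3-kinase pathways. TRPM5 is a calcium-activated channel that conducts monovalent cations and depolarises the membrane.

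Expression is given as FPKM (fragments scaled to transcript length and to the mapped total), and differences are log2 differences of FPKM + 1 in LPS minus anti-IgM, with the standard error of the model, which understate the change of low genes. Calls required an adjusted p (Benjamini-Hochberg) below 0.05 in limma, a linear model whose spread was estimated from all 12 libraries. Total FPKM per library ran from 563461 to 805373 and symbols above 0 from 12737 to 13483, with replicate correlations (Pearson r across genes) of 0.9827 to 0.9901. Relative depth, inferred from the step that 1 fragment makes among low values, was 0.83 and 0.645 in the LPS libraries and 0.742 and 0.943 in the anti-IgM libraries, where wild-type unstimulated replicate 1 is 1. Trpm5 was listed at 0 and 0.0303 FPKM with LPS, at 0 in both anti-IgM libraries and at 0.0236 and 0.0184 FPKM in unstimulated Trpm5-/- cells. Wild-type libraries held at most 0.434 FPKM, so the gene is near the floor in both genotypes and was not tested.

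Markers of B cells were high in all 4 libraries. Cd79a, which carries signals from the antigen receptor, stood at 566 and 505 FPKM with LPS, against 544 and 528 FPKM with anti-IgM, and the marginal zone marker Cd9 at 458 and 421 FPKM with LPS, against 374 and 388 FPKM with anti-IgM. Cd1d1, another marginal zone marker, was low in all 4 at 2.09 to 3.49 FPKM, against 12.98 and 15.3 FPKM in unstimulated Trpm5-/- cells. The T cell genes Cd3e, Cd3d, Cd3g, Cd4 and Cd8a did not exceed 0.702 FPKM in any of the 4, and 8 of 10 T cell markers in the files never passed 1 FPKM there. The summed level of the 13 macrophage and monocyte markers was 293 and 302 FPKM with LPS, against 160 and 170 FPKM with anti-IgM. Hmox1, which encodes the haem-degrading enzyme and is not limited to macrophages, made up most of that sum with 268 and 279 FPKM under LPS and 137 and 146 FPKM under anti-IgM. Of the 13 markers 8 never passed 1 FPKM in the 4 libraries, Csf1r and C1qa among them. Lyz2, which encodes lysozyme, was at 10.5 and 11.3 FPKM with LPS, against 9.34 and 13.1 FPKM with anti-IgM, and Adgre1, which encodes F4/80, at 1.49 and 2.13 FPKM with LPS, against 1.60 and 0.998 FPKM with anti-IgM. The 9 dendritic cell markers summed to 139 and 130 FPKM with LPS, against 66.6 and 68.3 FPKM with anti-IgM, and 2 of the 3 tested were called higher with LPS, both by at least 2-fold, while Itgax, Xcr1 and Siglech stayed at or below 0.467 FPKM. Summed T cell markers were 16.9 and 14.5 FPKM with LPS, against 55.7 and 52.9 FPKM with anti-IgM, most of it from Lck, a Src-family kinase, at 14.0 and 13.5 FPKM with LPS, against 53.8 and 51.2 FPKM with anti-IgM. The part of any of these markers' cells in the results was not tested, and in bulk libraries fewer cells of a type and less RNA per cell cannot be told apart. Summed erythroid markers were 314 FPKM in each LPS library and 280 and 333 FPKM in the anti-IgM libraries, most of it from haemoglobin genes whose near-identical copies make single values uncertain.

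Many genes separated the 2 stimuli. Of 10797 genes, 5599 (51.9%) were called, 3056 higher with LPS (28.3%) and 2543 lower with LPS (23.6%), and 6170 had an unadjusted p under 0.05. Both LPS libraries lay above both anti-IgM libraries for 39.7% of genes and below both for 35.6%. Changes of at least 2-fold were more often on the anti-IgM side, with 400 genes higher with LPS (3.7%) and 809 lower (7.49%), together 11.2%. At 4-fold or more, 94 genes were higher and 129 lower. The direction of small differences depended on scaling: upper-quartile scaling moved the median over all genes from 0.02 by -0.10 on the log2 scale and changed the split to 2358 higher and 3146 lower. Small differences are therefore read against a shift of that size.

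The largest rises with LPS were cytokine and chemokine genes. Il1b, which encodes the inflammatory cytokine interleukin-1 beta (chr2:129364570-129371139, minus strand, mm10), stood at 128 and 115 FPKM with LPS, against 0.492 and 1.01 FPKM with anti-IgM and 5.998 and 6.75 FPKM in unstimulated cells. Both LPS libraries lay far above the other 4 and both anti-IgM libraries below unstimulated cells, with a difference of 6.15 ± 0.163 (adjusted p = 1.77e-09). Il6, a B cell and acute-phase cytokine (chr5:30013114-30019981, plus strand), gave 94.7 and 83.0 FPKM with LPS, against 0.376 and 1.18 FPKM with anti-IgM and 2.02 and 2.28 FPKM without stimulus. Its mean with LPS was 114 times that with anti-IgM (5.69 ± 0.193, adjusted p = 8.52e-09). Cxcl10, a ligand of the chemokine receptor CXCR3, reached 163 and 137 FPKM with LPS, against 2.84 and 3.11 FPKM with anti-IgM, a difference of 5.24 ± 0.385. Absence of overlap between LPS and anti-IgM libraries was a condition for choosing the largest rises, so it is no further result. For each of these genes the LPS libraries also lay above both unstimulated ones.

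Ccl22, a ligand of CCR4, stood at 84.0 and 89.3 FPKM with LPS, against 2.68 and 2.81 FPKM with anti-IgM. Ebi3, the subunit shared by interleukin-27 and interleukin-35, gave 125 FPKM in both LPS libraries and 4.69 and 5.30 FPKM with anti-IgM. For both genes the anti-IgM libraries stayed below the unstimulated ones, which held 2.89 and 3.56 FPKM of Ccl22 and 8.20 and 9.52 FPKM of Ebi3. That difference from unstimulated cells was called for Ebi3 (-0.72) but not for Ccl22 (-0.17). Il1a rose to 23.2 and 21.3 FPKM with LPS, against 1.06 and 0.686 FPKM with anti-IgM. Il10, the anti-inflammatory cytokine of regulatory B cells, gave 37.4 and 26.4 FPKM with LPS, against 9.13 and 7.33 FPKM with anti-IgM and 9.53 and 9.26 FPKM without stimulus. Its 2 LPS libraries lay apart from each other but above all the rest (1.82 ± 0.160, adjusted p = 6.82e-06). Ifna4 was listed at 12.2 and 15.4 FPKM with LPS and at 0 and 0.199 FPKM with anti-IgM, but interferon alpha genes are near-identical and the reads could belong to another member.

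Over the list of cytokine genes, 20 of 32 were tested, 12 were higher with LPS and 4 lower, and 10 and 3 of these by at least 2-fold. The median difference was 0.97, against 0.02 over all genes. The exceptions were Spp1, Csf1, Ifng and Tgfb1. Lymphotoxin genes moved between the extremes: Ltb was at 109 and 110 FPKM with LPS, against 28.9 and 25.9 FPKM with anti-IgM and 221 and 243 FPKM without stimulus, so both stimuli lay below unstimulated cells. Lta, its partner, gave 21.8 and 26.1 FPKM with LPS, against 1.41 and 3.46 FPKM with anti-IgM, with unstimulated cells between them at 5.80 and 5.70 FPKM. Of 18 chemokine genes 7 were tested, 5 of them higher with LPS and 1 lower.

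The 2 chemokines Ccl3 and Ccl4, inflammatory chemokines that lie close together on chromosome 11, were induced by both stimuli. Ccl3 was at 193 and 187 FPKM with LPS, against 145 and 134 FPKM with anti-IgM and 47.5 and 51.4 FPKM without stimulus. Ccl4 was at 587 and 582 FPKM with LPS, against 690 and 660 FPKM with anti-IgM and 246 and 211 FPKM without stimulus. The small differences between stimuli, 0.44 ± 0.0725 for Ccl3 and -0.21 ± 0.0704 for Ccl4, pointed in opposite directions. That of Ccl4 lost its call when any 1 of the 4 libraries was left out, and that of Ccl3 fell to 0.16 and was not called under quantile normalization.

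**Figure D1:**
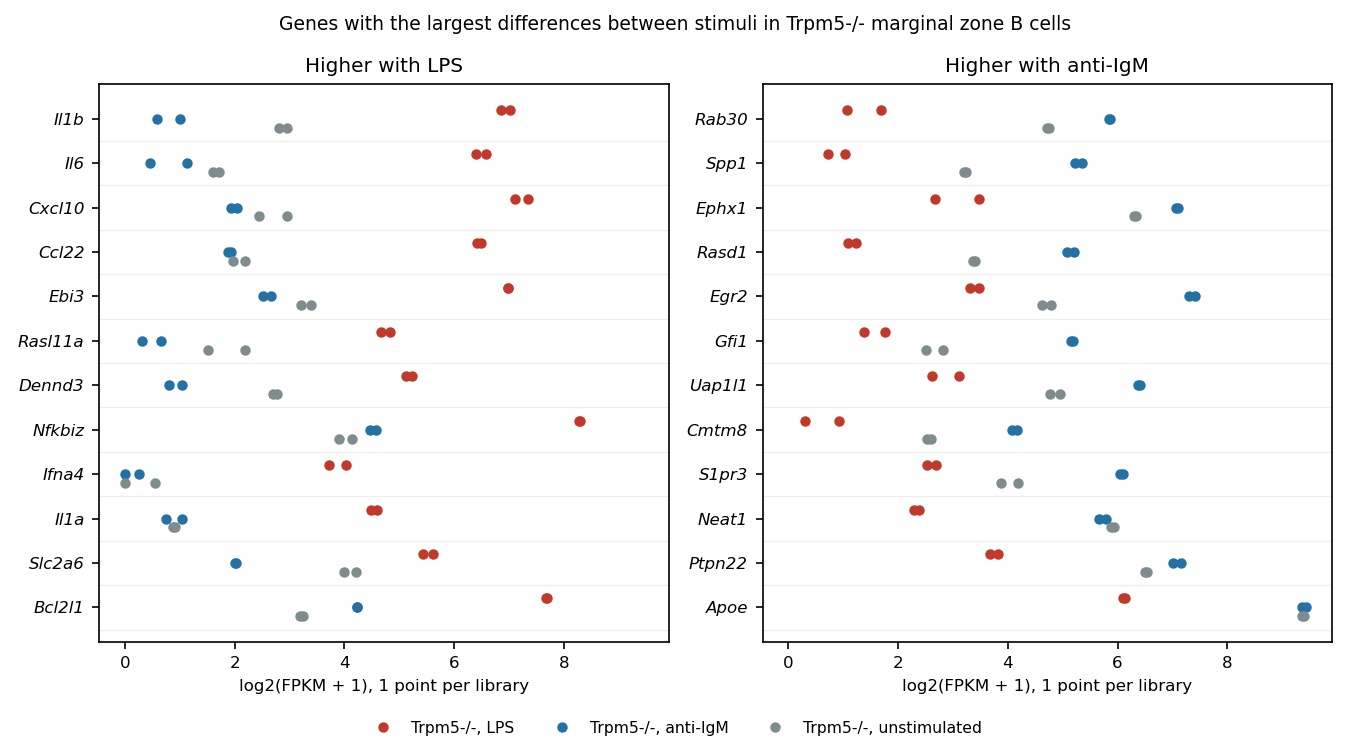
Each point is 1 library of Trpm5-/- cells, on a log2(FPKM + 1) axis, for the 12 genes with the largest rises (left) and the 12 with the largest falls (right) in LPS against anti-IgM. Il1b sits at 128 and 115 FPKM in the LPS libraries and near or below 1 FPKM in the anti-IgM libraries, while Rab30 shows the reverse order.

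NF-kB is a family of transcription factors held in the cytoplasm by inhibitors, which its own activity re-induces. Of 33 tested genes for NF-kB subunits, inhibitors and targets, 26 were higher with LPS and 3 lower, and 19 rose by at least 2-fold while none fell so far. The list median was 1.15. Nfkbiz, a nuclear inhibitor-like protein needed for secondary targets such as Il6 in mouse macrophages, stood at 311 and 313 FPKM with LPS, against 21.2 and 23.0 FPKM with anti-IgM and 14.0 and 16.6 FPKM without stimulus. Its anti-IgM libraries were slightly above unstimulated ones, and its LPS libraries 14.1 times above anti-IgM (3.76 ± 0.0794, adjusted p = 4.67e-10). Nfkbia, the classical inhibitor IkB-alpha, gave 985 and 912 FPKM with LPS, against 229 and 225 FPKM with anti-IgM and 197 and 190 FPKM without stimulus. Tnfaip3, the deubiquitinase A20 that ends NF-kB signalling, gave 171 and 172 FPKM with LPS, against 37.9 and 34.9 FPKM with anti-IgM and 23.1 and 22.4 FPKM without stimulus. Both inhibitors thus rose above unstimulated cells under either stimulus, and much further with LPS.

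Birc3 and Icam1 followed another order. Birc3, an inhibitor of apoptosis, gave 298 and 301 FPKM with LPS, against 55.3 and 55.4 FPKM with anti-IgM and 108 and 107 FPKM without stimulus. Icam1, the adhesion ligand of LFA-1, gave 313 and 331 FPKM with LPS, against 29.3 and 32.4 FPKM with anti-IgM and 42.4 and 40.8 FPKM without stimulus. Both fell below unstimulated cells with anti-IgM, by 0.94 for Birc3 and 0.42 for Icam1 on the log2 scale. Bcl2l1, which encodes the survival protein Bcl-xL, was at 204 and 206 FPKM with LPS, against 17.8 and 17.6 FPKM with anti-IgM and 8.13 and 8.46 FPKM without stimulus, a difference of 3.46 ± 0.0633. Other rises among the 12 largest were Rasl11a, a Ras-like small GTPase, Dennd3, an exchange factor for the GTPase Rab12, and Slc2a6, the sugar transporter GLUT6.

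The promoters of 3 of these genes and 2 others are printed to show the letters of 2 motif types searched in them. They were picked after their values were seen. Each runs from 250 bases before to 50 after the gene's start, 5′ to 3′ on the gene's strand, from RefSeq on GRCm38.p6. Capitals mark matches on either strand to an NF-kB-type motif in its looser form and to an interferon-response-type motif. Those of Il6 (chr5:30012864-30013163, plus strand), Nfkbia (chr12:55492598-55492897, minus strand), Cxcl10 (chr5:92348840-92349139, minus strand), Isg15 (chr4:156200769-156201068, minus strand) and Nr4a2 (chr2:57123954-57124253, minus strand) read:
Il6: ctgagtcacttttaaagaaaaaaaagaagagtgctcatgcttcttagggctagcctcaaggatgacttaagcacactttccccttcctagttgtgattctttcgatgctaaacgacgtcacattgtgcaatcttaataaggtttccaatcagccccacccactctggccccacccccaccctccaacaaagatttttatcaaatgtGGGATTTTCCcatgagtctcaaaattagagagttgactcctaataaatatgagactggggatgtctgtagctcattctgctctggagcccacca
Nfkbia: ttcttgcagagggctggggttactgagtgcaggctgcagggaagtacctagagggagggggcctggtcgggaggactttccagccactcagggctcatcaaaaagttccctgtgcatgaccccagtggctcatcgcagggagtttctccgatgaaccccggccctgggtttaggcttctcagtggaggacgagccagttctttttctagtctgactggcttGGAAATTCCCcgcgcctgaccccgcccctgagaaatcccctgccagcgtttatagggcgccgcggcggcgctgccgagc
Cxcl10: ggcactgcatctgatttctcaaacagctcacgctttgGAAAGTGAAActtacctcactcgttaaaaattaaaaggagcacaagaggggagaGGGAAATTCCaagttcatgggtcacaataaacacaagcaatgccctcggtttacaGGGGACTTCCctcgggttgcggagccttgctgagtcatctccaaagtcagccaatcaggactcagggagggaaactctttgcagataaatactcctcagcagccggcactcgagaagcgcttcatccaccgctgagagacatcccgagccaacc
Isg15: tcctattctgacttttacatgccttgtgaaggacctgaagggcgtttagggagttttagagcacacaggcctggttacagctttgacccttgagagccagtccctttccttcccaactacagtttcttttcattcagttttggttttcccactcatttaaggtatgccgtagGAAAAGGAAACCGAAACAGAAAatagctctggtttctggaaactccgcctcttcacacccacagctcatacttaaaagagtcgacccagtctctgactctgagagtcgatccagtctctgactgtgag
Nr4a2: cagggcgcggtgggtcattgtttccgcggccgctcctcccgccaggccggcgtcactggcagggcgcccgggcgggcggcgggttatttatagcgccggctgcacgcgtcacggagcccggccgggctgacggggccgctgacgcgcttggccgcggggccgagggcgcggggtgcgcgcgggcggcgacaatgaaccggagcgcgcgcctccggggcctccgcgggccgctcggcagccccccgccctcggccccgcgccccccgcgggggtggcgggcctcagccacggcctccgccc
The Il6 match begins 44 bases before the start, and that of Nfkbia, on the opposite strand, 29 bases before it. Cxcl10 holds matches to both motifs, at 213 bases before its start for the interferon-response type and at 159 and 104 for the NF-kB type. Isg15 holds 3 overlapping matches of the interferon-response type. Nr4a2, an immediate early gene higher with anti-IgM, has no match to either in this window.

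Over 8227 tested genes with 1 promoter used, the stricter form of the NF-kB-type motif, every match of which is also a match of the looser form, was held on either strand by 4.9% of promoters of genes called at least 2-fold higher with LPS (14 of 286, 95% Wilson interval 2.94 to 8.05%). The share was 0.98% among genes at least 2-fold higher with anti-IgM (6 of 612, 0.45 to 2.12%) and 1.67% over all 8227. The looser form gave 10.49%, 4.58% and 6.43% over the same groups in that order, and the interferon-response type 5.59%, 2.94% and 3.15%. The AP-1-type motif TGANTCA gave 7.69%, 4.58% and 4.44%. The E-box CACGTG was held by 9.79% on the LPS side, 13.89% on the anti-IgM side and 11.01% of all. TGACGTCA, the cAMP-response-type motif, was held by 1.75%, 2.61% and 3.55%, and GCGTGGGCG, the motif of EGR proteins, by 2.1%, 2.45% and 1.29%. One form of the serum response motif was found in neither 2-fold group. Where a gene had several listed starts (1629 genes) the most upstream was used, and a match describes letters only.

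Interferon-stimulated genes encode antiviral proteins and are switched on by interferon receptors. Of 44 tested, 19 were higher with LPS, 1 was lower and 24 were not called, and 7 rose by at least 2-fold. The share called, 45.5%, was below the 51.9% of all genes. The list median was 0.38. Oasl1, which restrains IRF7 translation in mice, gave 125 and 113 FPKM with LPS, against 12.4 and 9.80 FPKM with anti-IgM and 17.9 and 15.2 FPKM without stimulus. Isg15, a ubiquitin-like modifier, gave 76.5 and 78.1 FPKM with LPS, against 12.9 and 14.5 FPKM with anti-IgM and 15.0 and 12.4 FPKM without stimulus. Ifit1, which binds viral RNA ends, gave 36.9 and 33.6 FPKM with LPS, against 4.40 and 3.81 FPKM with anti-IgM. All 3 stood above unstimulated cells with LPS.

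The guanylate-binding proteins followed another order. Gbp3 stood at 34.5 and 34.1 FPKM with LPS, against 9.75 and 9.66 FPKM with anti-IgM and 49.5 and 46.1 FPKM without stimulus, so it lay highest in unstimulated cells. Gbp2 gave 16.4 and 18.3 FPKM with LPS, against 2.94 and 2.39 FPKM with anti-IgM and 14.2 and 13.5 FPKM without stimulus. The difference between stimuli in these genes came with lower values under anti-IgM than in unstimulated cells, by 2.19 and 2.02 on the log2 scale for Gbp3 and Gbp2. Over the whole list the median against unstimulated cells was -0.39 with LPS and -0.79 with anti-IgM.

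Surface proteins of B cell activation and costimulation were mostly higher with LPS, 27 of 34 against 2 lower, with a median of 0.91. Cd40, the receptor for T cell help, gave 311 and 320 FPKM with LPS, against 63.3 and 56.8 FPKM with anti-IgM and 84.4 and 78.2 FPKM without stimulus. Il2ra, the alpha chain of the interleukin-2 receptor, gave 119 and 122 FPKM with LPS, against 16.8 and 17.7 FPKM with anti-IgM and 6.99 and 6.63 FPKM without stimulus. Cd44, the hyaluronan receptor, was at 218 and 214 FPKM with LPS, against 52.5 and 49.0 FPKM with anti-IgM, and the tetraspanin Cd82 at 234 and 229 FPKM with LPS, against 33.6 and 33.0 FPKM with anti-IgM. In all 4 genes both LPS libraries were above every other Trpm5-/- library. Cd38, an ectoenzyme that consumes NAD, went the other way with 8.12 and 8.40 FPKM under LPS, against 48.4 and 42.7 FPKM under anti-IgM and 91.3 and 93.8 FPKM without stimulus.

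The early activation marker Cd69 was at 306 and 296 FPKM with LPS, against 159 and 155 FPKM with anti-IgM and 95.1 and 99.0 FPKM without stimulus, a difference of 0.93 ± 0.0480. Cd86, a ligand of CD28, differed little, at 307 and 298 FPKM with LPS, against 273 and 248 FPKM with anti-IgM and 172 and 163 FPKM without stimulus. Its difference of 0.21 ± 0.0666 (adjusted p = 0.0206) was -0.05 and not called under quantile normalization, and it was called in 8 of 14 alternatives. The call was also lost under upper-quartile scaling, with no variance trend, with only the groups compared, and without LPS replicate 1 or anti-IgM replicate 2.

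Of 26 tested genes of JAK-STAT and cytokine feedback, 18 were higher with LPS and 2 lower, with a median of 0.52. Pim2, a survival kinase, gave 283 and 273 FPKM with LPS, against 37.6 and 38.7 FPKM with anti-IgM and 85.1 and 85.8 FPKM without stimulus. Stat5a, a signal transducer of interleukin-2 family receptors, gave 80.7 and 81.0 FPKM with LPS, against 24.1 and 25.7 FPKM with anti-IgM and 10.98 and 11.2 FPKM without stimulus. Pim2 was thus lowest with anti-IgM, and Stat5a lowest in unstimulated cells. Among 19 apoptosis regulators 11 were higher with LPS and 3 lower. Cflar, which encodes the caspase-8 inhibitor c-FLIP, gave 97.9 and 88.7 FPKM with LPS, against 26.4 and 27.5 FPKM with anti-IgM. Casp9, the initiator caspase of the mitochondrial pathway, gave 1.23 and 0.995 FPKM with LPS, against 5.22 and 5.32 FPKM with anti-IgM and 18.0 and 15.1 FPKM without stimulus. The Bcl2a1 copies Bcl2a1b and Bcl2a1d also rose, by 1.52 and 1.96, but share near-identical sequence, and the split between them is uncertain.

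**Figure D2:**
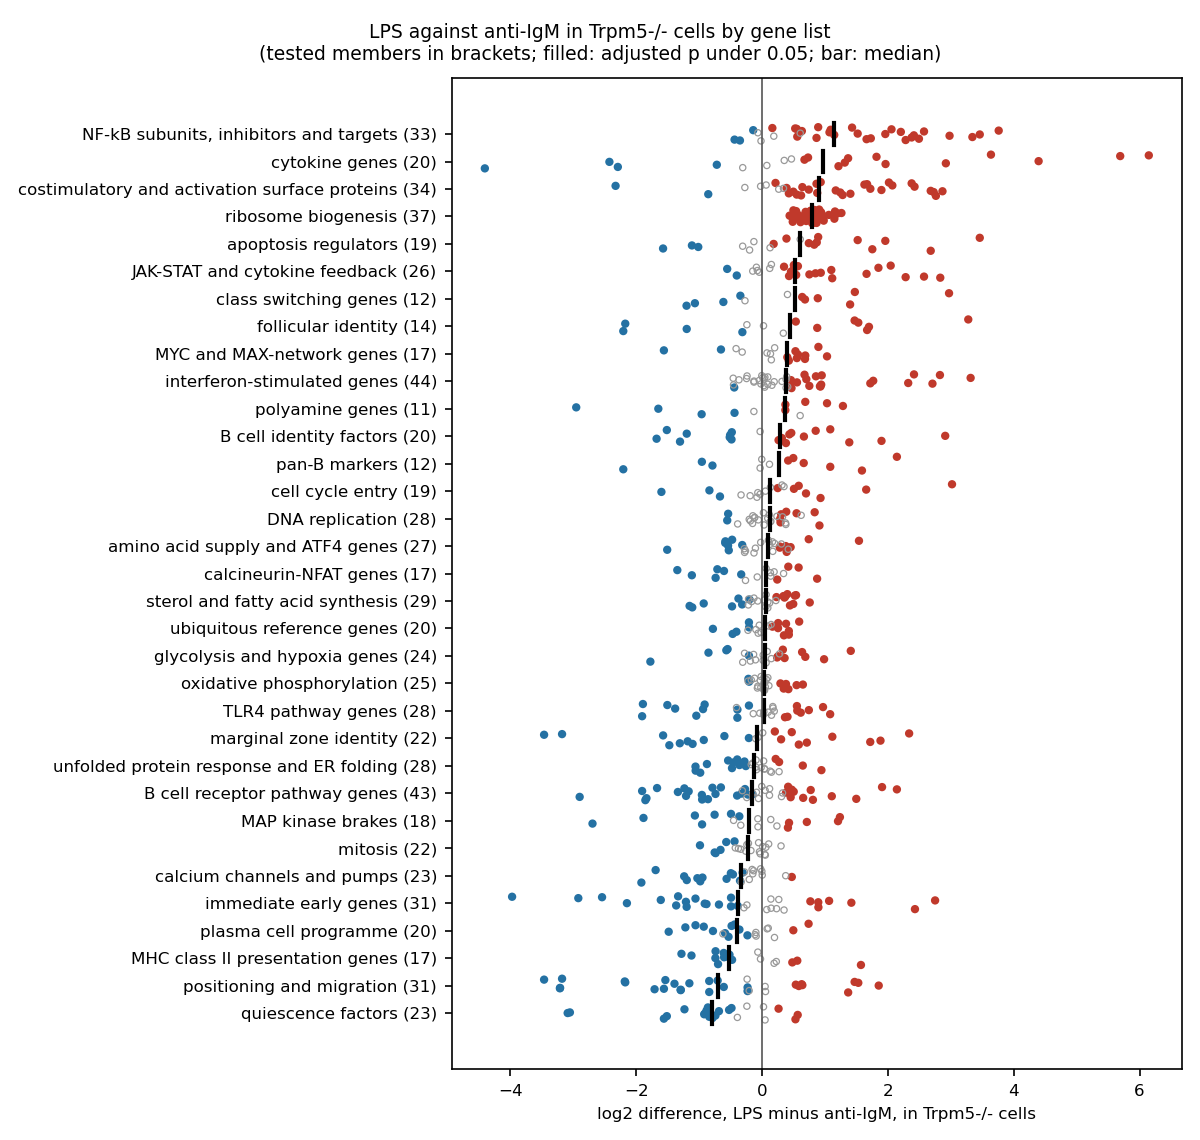
Each point is a tested member of a list, placed at its log2 difference (LPS minus anti-IgM) in Trpm5-/- cells, filled where called, with the list median as a bar. NF-kB genes have a median of 1.15 and all 37 ribosome biogenesis genes lie right of 0, while quiescence factors have a median of -0.79.

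The genes highest with anti-IgM were led by Rab30, a GTPase of the Golgi (chr7:92741603-92844535, plus strand). It gave 2.23 and 1.11 FPKM with LPS, against 56.1 and 57.3 FPKM with anti-IgM and 26.0 and 25.1 FPKM without stimulus, a difference of -4.47 ± 0.164 (adjusted p = 1.39e-08). Spp1, the secreted phosphoprotein osteopontin, gave 0.649 and 1.04 FPKM with LPS, against 39.7 and 36.2 FPKM with anti-IgM and 8.14 and 8.45 FPKM without stimulus. Both genes moved in opposite directions from unstimulated cells under the 2 stimuli, and so did Gfi1, a transcriptional repressor, at 2.37 and 1.61 FPKM with LPS, against 34.6 and 35.2 FPKM with anti-IgM and 4.69 and 6.02 FPKM without stimulus. Rasd1, a Ras-related GTPase, Ephx1, the microsomal epoxide hydrolase, Cmtm8, a MARVEL-domain membrane protein, and Uap1l1 fell by between 3.51 and 4.01 with LPS.

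Apoe and Neat1 formed another kind among the 12 largest falls. Apoe, the lipid carrier apolipoprotein E, was at 69.0 and 67.6 FPKM with LPS, against 692 and 656 FPKM with anti-IgM and 655 and 677 FPKM without stimulus. Neat1, the long noncoding RNA that builds paraspeckles, was at 4.19 and 3.91 FPKM with LPS, against 49.3 and 54.5 FPKM with anti-IgM and 58.1 and 59.8 FPKM without stimulus. In both, anti-IgM libraries stayed near unstimulated ones (0.02 and -0.18, neither called) and LPS libraries fell about as far from either. Malat1, another nuclear RNA, was not called between stimuli (-0.16 ± 0.0968), at 132 and 149 FPKM with LPS, against 155 and 158 FPKM with anti-IgM. Ptpn22, a phosphatase that restrains antigen receptor signalling, gave 11.8 and 13.1 FPKM with LPS, against 142 and 128 FPKM with anti-IgM and 92.3 and 90.0 FPKM without stimulus.

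Immediate early genes are switched on within minutes of receptor signalling without new protein synthesis, so at 4 h a later phase is seen. Of 31 tested, 7 were higher with LPS and 16 lower, 10 of the latter by at least 2-fold, and the median was -0.39. Egr2, a zinc finger factor induced by calcineurin and MAP kinases, gave 8.85 and 10.1 FPKM with LPS, against 169 and 157 FPKM with anti-IgM and 26.5 and 23.6 FPKM without stimulus (-3.97 ± 0.112, adjusted p = 2.72e-09). Nr4a2, an orphan nuclear receptor, gave 3.39 and 3.55 FPKM with LPS, against 35.8 and 30.0 FPKM with anti-IgM and 6.76 and 6.69 FPKM without stimulus. Both lay below unstimulated cells with LPS and above them with anti-IgM. Egr1, of the same family as Egr2, was at 34.7 and 32.8 FPKM with LPS, against 87.5 and 85.8 FPKM with anti-IgM and 27.2 and 29.8 FPKM without stimulus, a difference of -1.33 ± 0.0738.

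Nr4a1, which encodes Nur77 and is widely used as a reporter of antigen receptor signalling, separated the stimuli less than its relative did. It stood at 213 and 209 FPKM with LPS, against 284 and 312 FPKM with anti-IgM and 91.8 and 98.5 FPKM without stimulus (-0.49 ± 0.0703, adjusted p = 2.04e-04). Both stimuli raised it, by 1.14 with LPS and 1.64 with anti-IgM over unstimulated cells. In the opposite direction, Gadd45b, a stress-responsive regulator of MAP kinase signalling, gave 504 and 481 FPKM with LPS, against 95.2 and 86.1 FPKM with anti-IgM and 72.1 and 70.0 FPKM without stimulus. Ier5 was also higher with LPS, at 87.1 and 84.9 FPKM against 33.1 and 30.0 FPKM with anti-IgM. Ier2 was lower, at 42.4 and 38.3 FPKM with LPS, against 92.8 and 96.1 FPKM with anti-IgM.

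Of 18 tested phosphatases and inhibitors that restrain MAP kinases, 5 were higher with LPS and 7 lower. Spry1, an inhibitor of Ras signalling, gave 0.855 and 1.68 FPKM with LPS, against 11.7 and 15.4 FPKM with anti-IgM and 4.90 and 3.35 FPKM without stimulus. Dusp6, a phosphatase of ERK, gave 1.25 and 0.685 FPKM with LPS, against 7.10 and 5.38 FPKM with anti-IgM. The related Dusp5 and Dusp14 were higher with LPS instead, by 1.24 ± 0.145 and 1.21 ± 0.124. Among 17 tested calcineurin-NFAT genes 4 were higher and 6 lower, and the sign of their small median changed with scaling (0.07, or -0.06 under upper-quartile scaling). Their share called was 58.8%, near the 51.9% of all genes. Nfatc1, the inducible NFAT factor of B cells, was at 67.3 and 74.5 FPKM with LPS, against 174 and 189 FPKM with anti-IgM and 121 and 122 FPKM without stimulus. The catalytic calcineurin subunits Ppp3ca and Ppp3cb were higher with LPS (0.42 and 0.58), and the regulatory subunit Ppp3r1 was lower (-0.71).

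**Figure D3:**
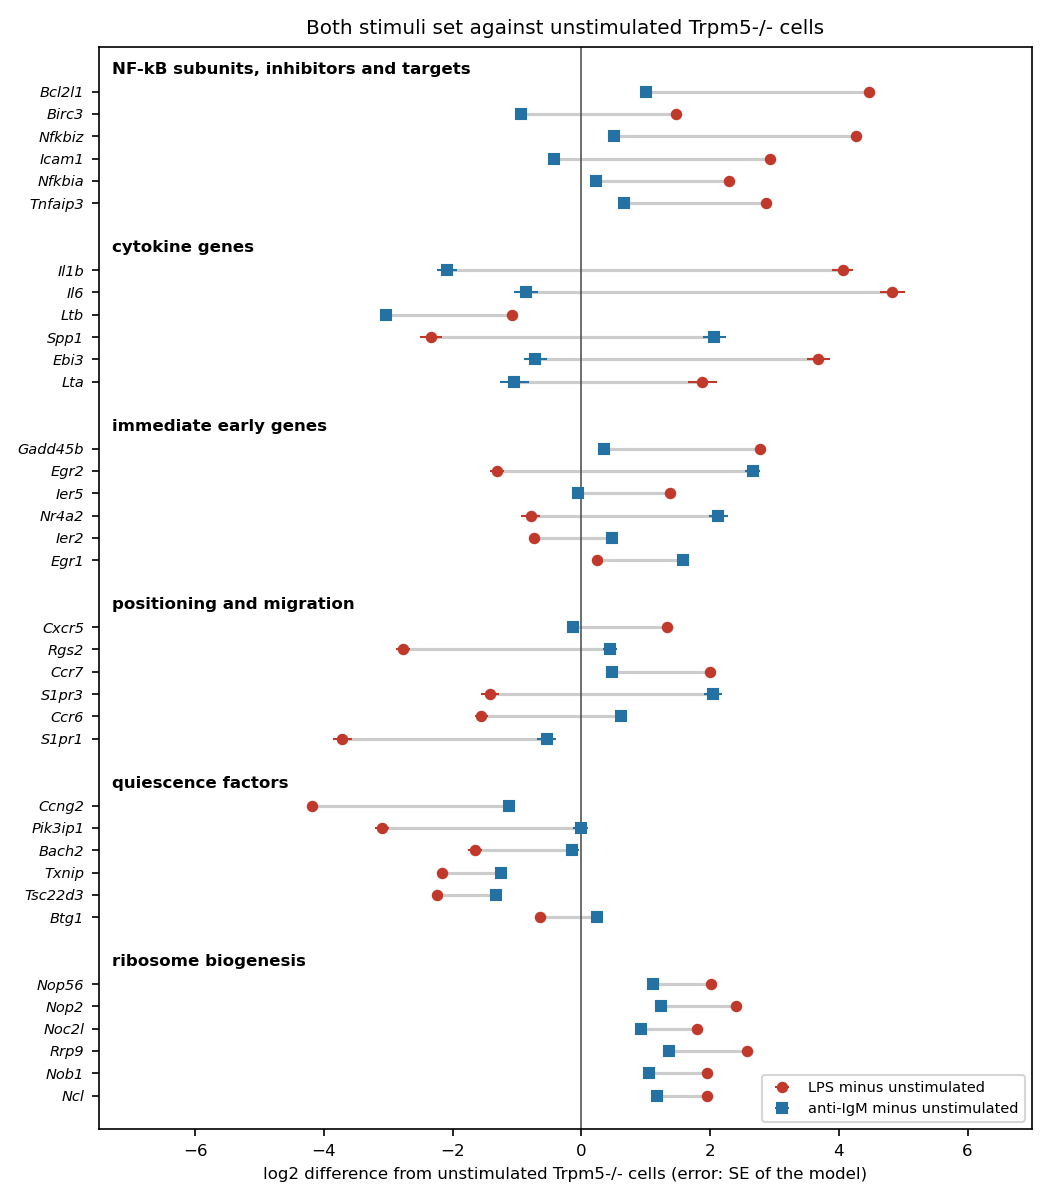
Each row is a gene, with its log2 difference from unstimulated Trpm5-/- cells under LPS (circle) and anti-IgM (square), with the standard error of the model, for the 6 members of smallest p in each of 6 lists. Egr2 and S1pr3 lie left of 0 with LPS and right of it with anti-IgM, while ribosome biogenesis genes lie right of 0 with both.

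Against unstimulated Trpm5-/- cells, 7413 genes (68.7%) were called with LPS, 3759 higher (34.8%) and 3654 lower (33.8%), a split that became 3002 and 4492 under upper-quartile scaling. With anti-IgM 5386 (49.9%) were called, 2899 higher (26.9%) and 2487 lower (23%). These comparisons share the unstimulated libraries, so only their own values are set side by side here. At 4-fold or more, 194 genes were higher and 366 lower with LPS, and 18 were higher and 85 lower with anti-IgM.

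Single receptors and adaptors of the 2 pathways differed between the stimuli, in both directions. Tlr4 was at 0.108 and 0.348 FPKM with LPS, against 3.51 and 3.57 FPKM with anti-IgM and 7.84 and 8.07 FPKM without stimulus, and its low level with LPS makes the fold imprecise (-1.89 ± 0.214). Cd180, which encodes the TLR4 relative RP105, gave 3.44 and 2.99 FPKM with LPS, against 10.8 and 11.1 FPKM with anti-IgM and 4.94 and 4.87 FPKM without stimulus. Irak2, a kinase of the Myddosome, gave 10.2 and 11.8 FPKM with LPS, against 30.4 and 30.2 FPKM with anti-IgM. All 3 were lower with LPS, whereas Irf5, a factor that MyD88 activates, was higher at 214 and 218 FPKM against 97.7 and 105 FPKM with anti-IgM. Of 28 tested TLR4 pathway genes 8 were higher and 10 lower, so 64.3% were called, against 51.9% of all genes. Their median of 0.03, against 0.02 over all genes, turned negative under quantile and upper-quartile scaling.

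Of 43 tested B cell receptor pathway genes 12 were higher with LPS and 20 lower, with a median of -0.15. The share called was 74.4%, against 51.9% of all genes. Syk, the kinase that binds the phosphorylated receptor, gave 75.0 and 78.1 FPKM with LPS, against 20.96 and 18.5 FPKM with anti-IgM and 101 and 104 FPKM without stimulus. The inhibitory adaptor Dok3 was lowest with LPS, at 6.62 and 6.91 FPKM against 56.9 FPKM in both anti-IgM libraries and 89.0 and 94.7 FPKM without stimulus. Lat2, an adaptor that recruits Grb2, was also lowest with LPS, with 23.3 and 23.5 FPKM, against 87.5 and 86.8 FPKM under anti-IgM and 93.3 and 90.8 FPKM without stimulus. Between anti-IgM and unstimulated cells Lat2 was not called (-0.08). Pik3ap1, the PI3-kinase adaptor BCAP that serves both pathways, was highest with anti-IgM: 29.0 and 31.1 FPKM with LPS, against 119 and 112 FPKM with anti-IgM and 45.1 and 44.9 FPKM without stimulus. Fyn, a Src-family kinase, gave 68.7 and 62.1 FPKM with LPS, against 211 and 209 FPKM with anti-IgM.

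Calcium channels and pumps were mostly lower with LPS, 12 of 23 tested against 1 higher, with a median of -0.33. In either direction 56.5% were called, near the 51.9% of all genes. Trpv2, a cation channel of the TRP family, gave 6.54 and 5.73 FPKM with LPS, against 21.7 and 22.3 FPKM with anti-IgM and 29.9 and 35.7 FPKM without stimulus. Atp2b1, the calcium pump of the plasma membrane, gave 14.3 and 14.2 FPKM with LPS, against 31.4 and 28.7 FPKM with anti-IgM and 15.6 and 15.2 FPKM without stimulus. Saraf, which limits store-operated calcium entry, gave 12.9 and 13.6 FPKM with LPS, against 32.8 and 32.2 FPKM with anti-IgM. Trpv2 and Saraf were thus below unstimulated cells with LPS, and Atp2b1 above them with anti-IgM. The closest relative of Trpm5, Trpm4, was not called.

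Receptors that place B cells in the spleen divided the stimuli sharply. Of 31 tested genes of positioning and migration 8 were higher with LPS and 19 lower, 13 of these by at least 2-fold, with a median of -0.71. S1pr3, a receptor for sphingosine-1-phosphate enriched in marginal zone B cells, gave 4.79 and 5.45 FPKM with LPS, against 67.7 and 65.1 FPKM with anti-IgM and 13.7 and 17.2 FPKM without stimulus. S1pr1, the receptor that holds these cells in the marginal zone, gave 13.5 and 10.5 FPKM with LPS, against 113 and 119 FPKM with anti-IgM and 167 and 170 FPKM without stimulus. Only S1pr3 of these rose above unstimulated cells with anti-IgM, and both fell with LPS. Rgs2, a brake on G protein signalling, followed with 2.77 and 2.58 FPKM under LPS, against 33.7 and 32.5 FPKM under anti-IgM and 25.3 and 23.0 FPKM without stimulus.

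Other chemokine receptors differed in direction. Ccr7, which guides cells toward the T cell zone, was at 1758 and 1802 FPKM with LPS, against 617 and 614 FPKM with anti-IgM and 450 and 439 FPKM without stimulus. Cxcr5, which guides cells into the follicle, was at 389 and 394 FPKM with LPS, against 144 and 138 FPKM with anti-IgM and 150 and 159 FPKM without stimulus. Ccr6, the receptor for CCL20, was lower with LPS at 32.9 and 32.6 FPKM, against 164 and 140 FPKM with anti-IgM and 101 and 95.9 FPKM without stimulus. Among 14 tested genes of follicular identity 7 were higher and 4 lower. The low-affinity IgE receptor Fcer2a (CD23), a marker of follicular cells, gave 560 and 554 FPKM with LPS, against 59.9 and 53.4 FPKM with anti-IgM and 83.5 and 85.7 FPKM without stimulus. Of 22 tested marginal zone genes 9 were higher and 10 lower, Notch2, the receptor that specifies the lineage, among the former with 14.3 and 15.7 FPKM under LPS, 6.29 and 6.46 FPKM under anti-IgM and 24.7 FPKM in both unstimulated libraries.

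Genes of ribosome biogenesis, which MYC drives, were higher with LPS. All 37 tested were called higher with LPS, by 0.44 to 1.26 with a median of 0.80, but only 5 by 2-fold or more. Their median over unstimulated cells was 1.95 with LPS and 1.10 with anti-IgM. Under upper-quartile scaling the median between stimuli was 0.68 and under quantile normalization 0.56. Nop56, a core protein of small nucleolar particles, was at 961 FPKM in both LPS libraries, against 509 and 514 FPKM with anti-IgM and 235 and 238 FPKM without stimulus. Ncl, which encodes nucleolin, was at 663 and 661 FPKM with LPS, against 391 and 384 FPKM with anti-IgM and 173 and 168 FPKM without stimulus. In both genes the 3 conditions were ordered alike and did not overlap. Myc itself was at 539 and 516 FPKM with LPS, against 284 and 282 FPKM with anti-IgM and 71.0 and 71.3 FPKM without stimulus (0.90 ± 0.0527). Of 17 tested MYC and MAX-network genes 9 were higher and 2 lower, with Srm, the spermidine synthase, at 707 and 711 FPKM with LPS, against 353 and 339 FPKM with anti-IgM.

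Of 11 polyamine genes 5 were higher and 4 lower, or 2 and 5 under quantile and 4 and 5 under upper-quartile scaling. Odc1, the rate-limiting enzyme of polyamine synthesis, rose by 0.69 ± 0.0614, whereas Sat1, which acetylates polyamines for export, was lower with LPS at 114 and 97.2 FPKM, against 333 and 331 FPKM with anti-IgM and 311 and 303 FPKM without stimulus. Other metabolic lists gave medians of 0.03 to 0.10. The shares called were 58.6% for sterol and fatty acid synthesis (10 higher and 7 lower of 29), 54.2% for glycolysis and hypoxia (8 and 5 of 24) and 51.9% for amino acid supply and ATF4 genes (7 and 7 of 27), near the 51.9% of all genes. Oxidative phosphorylation had 32.0% called (6 and 2 of 25), but under quantile normalization 3 were higher and 16 lower. The sign of all 4 medians turned under quantile and upper-quartile scaling. With them the balance of calls turned to 6 higher and 9 lower (quantile) or 8 and 10 (upper-quartile) for sterol and fatty acid synthesis, and to 6 and 7 or 5 and 6 for glycolysis and hypoxia. Single members stood out: Hk2, a hexokinase, at 22.1 and 19.7 FPKM with LPS, against 7.64 and 6.86 FPKM with anti-IgM, and Ddit3, the stress factor CHOP, at 28.6 and 26.7 FPKM with LPS, against 82.1 and 79.0 FPKM with anti-IgM. Bnip3 and Pfkp, the members of smallest p in the glycolysis and hypoxia list, were called lower with LPS. Ubiquitous reference genes, chosen as a check, were 8 higher and 5 lower of 20, none by 2-fold, with a median of 0.04 that also turned negative under those scalings, as did the balance of calls (3 higher and 7 lower, or 5 and 7).

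Factors that keep lymphocytes quiescent were lower with LPS, 16 of 23 tested against 3 higher, with a median of -0.79. Ccng2, a cyclin G that slows the cell cycle, gave 5.59 and 5.32 FPKM with LPS, against 52.2 and 53.0 FPKM with anti-IgM and 118 and 114 FPKM without stimulus. Pik3ip1, an inhibitor of PI3-kinase, gave 3.48 and 2.68 FPKM with LPS, against 33.3 and 33.7 FPKM with anti-IgM and 35.5 and 32.4 FPKM without stimulus. Ccng2 fell with both stimuli, further with LPS, and Pik3ip1 with LPS but was not called with anti-IgM. Bach2, a repressor of plasma cell fate, followed Pik3ip1 with 6.69 and 6.16 FPKM under LPS, 18.9 and 21.5 FPKM under anti-IgM and 23.0 and 21.7 FPKM without stimulus.

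Cell cycle lists differed in the share called, which for cell cycle entry was 52.6%, near the 51.9% of all genes. Of 19 tested genes of cell cycle entry 7 were higher with LPS and 3 lower, led by the D-type cyclin Ccnd2, at 165 and 153 FPKM with LPS, against 19.1 and 18.4 FPKM with anti-IgM and 16.3 and 13.4 FPKM without stimulus. Cdkn2d, an inhibitor of CDK4 and CDK6, was at 1.02 and 2.03 FPKM with LPS, against 6.22 and 6.77 FPKM with anti-IgM. Of 28 DNA replication genes 7 were higher and 2 lower, or 4 and 6 under upper-quartile scaling, so no direction is given for them. Of 22 mitotic genes none was higher and 6 were lower, among them Ccnb2, a cyclin of mitotic entry, at 4.65 FPKM in both LPS libraries, against 10.3 and 10.1 FPKM with anti-IgM and 25.6 and 23.1 FPKM without stimulus. The shares called in these 2 lists (32.1% and 27.3%) were below that of all genes.

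MHC class II presentation genes, which let B cells show antigen to T cells, were lower with LPS in 10 of 17 tested and higher in 3, with a median of -0.52. H2-Aa, a class II alpha chain, gave 2206 and 2108 FPKM with LPS, against 3703 and 3496 FPKM with anti-IgM and 2434 and 2404 FPKM without stimulus. H2-DMb1, a chain of the peptide editor, gave 19.8 and 21.9 FPKM with LPS, against 47.1 and 45.9 FPKM with anti-IgM and 67.9 and 71.7 FPKM without stimulus. The lysosomal thiol reductase Ifi30 was higher with LPS, at 140 and 133 FPKM against 46.1 and 44.4 FPKM with anti-IgM. Near-identical H2-DMb copies make their single values uncertain.

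Plasma cell genes were lower with LPS in 11 of 20 tested and higher in 2, with a median of -0.40. Irf4, which drives the early steps of the programme, was one of the exceptions, at 239 and 238 FPKM with LPS, against 147 and 138 FPKM with anti-IgM and 51.4 and 47.8 FPKM without stimulus. Xbp1, the factor that expands the secretory apparatus, gave 58.5 and 57.0 FPKM with LPS, against 119 and 124 FPKM with anti-IgM and 90.8 and 90.4 FPKM without stimulus. Pou2af1, the coactivator OCA-B, gave 41.9 and 41.7 FPKM with LPS, against 119 and 118 FPKM with anti-IgM and 211 and 217 FPKM without stimulus. Irf4 was thus raised by both stimuli, and Pou2af1 lowered by both. Of 28 genes of the unfolded protein response and protein folding 4 were higher and 12 lower, with a median of -0.12. Their share called, 57.1%, was near the 51.9% of all genes.

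Of 20 B cell identity factors 11 were higher and 8 lower. Pou2f2, the octamer factor Oct-2, gave 41.1 and 46.9 FPKM with LPS, against 4.80 and 5.13 FPKM with anti-IgM and 15.2 and 17.7 FPKM without stimulus. Id2, an inhibitor of E proteins, gave 244 and 216 FPKM with LPS, against 61.3 and 60.4 FPKM with anti-IgM, whereas its relative Id3 gave 33.1 and 32.1 FPKM with LPS, against 79.0 and 85.2 FPKM with anti-IgM. Among 12 tested class switching genes 6 were higher and 4 lower. Batf, a factor needed for switching in mice, gave 373 and 331 FPKM with LPS, against 41.1 and 46.9 FPKM with anti-IgM and 23.8 and 23.4 FPKM without stimulus. Immunoglobulin constant region genes were not analysed here.

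Small RNA genes gave the largest values of all, but the full-length cDNA method measures short RNAs poorly. Snord33, a small nucleolar RNA, was listed at 1124 and 2893 FPKM with LPS and at 0 in the other 10 libraries. Mir324 was listed at 386 and 497 FPKM with LPS and likewise at 0 elsewhere. Mir19b-1 was listed at 0 in both LPS libraries and at 558 and 1755 FPKM with anti-IgM, but its 2 unstimulated libraries stood at 0 and 1171 FPKM. A gene listed at 0 allows no fold.

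Wild-type cells separated the 2 stimuli in much the same way. In wild type 5695 genes (52.7%) were called, 27.7% of genes higher with LPS and 25% lower, and 4572 were called in both genotypes in the same direction, 81.7% of the Trpm5-/- calls and 80.3% of the wild-type calls. At 2-fold or more 1209 genes passed in Trpm5-/- cells and 1231 in wild type, with 912 shared in direction, 75.4% and 74.1%. The 2 sets of differences correlated across genes with r = 0.78, a description over genes that are not independent replicates. The median absolute difference was 0.382 in Trpm5-/- cells and 0.381 in wild type. Among interferon-stimulated genes, 19 were called higher with LPS and 1 lower in Trpm5-/- cells, and 14 higher and 5 lower in wild type, with medians of 0.38 and -0.01. None of their members differed between genotypes in the interaction.

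The difference between genotypes was tested directly, as the stimulus difference in Trpm5-/- cells minus that in wild type. Of 10797 genes 12 (0.111%) were called, 9 higher (0.0834%) and 3 lower (0.0278%), and 1058 had an unadjusted p under 0.05. On simulated data of 10797 genes, 200 of them changed, this interaction test found 55.2% of those changed 2-fold and 92.4% of those changed 4-fold. In that simulation 9 of its 126 calls were false. With only 12 genes called in the data the cutoff is stricter, so the shares found there may be lower. Lrmp, a lymphocyte protein of the endoplasmic reticulum also known as Jaw1 (chr6:145115653-145174934, plus strand), was at 42.9 and 44.2 FPKM with LPS, against 167 and 168 FPKM with anti-IgM in Trpm5-/- cells, against 8.88 and 12.3 FPKM with LPS, against 122 and 127 FPKM with anti-IgM in wild type. Anti-IgM libraries were high in both genotypes, and LPS libraries lower in wild type. The stimulus difference was -1.92 in Trpm5-/- cells and -3.46 in wild type, and the difference of these was 1.54 ± 0.155 (adjusted p = 0.00446, and 4.16e-05 to 0.0443 over the alternatives).

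Stk38l, the kinase NDR2 (chr6:146724995-146778812, plus strand), was at 2.34 and 3.30 FPKM with LPS, against 5.70 and 5.75 FPKM with anti-IgM in Trpm5-/- cells, against 4.33 and 4.15 FPKM with LPS, against 22.1 and 23.9 FPKM with anti-IgM in wild type. Wild-type anti-IgM libraries stood above all others, and the stimulus difference of Stk38l was larger in wild type (-2.20, against -0.83 in Trpm5-/- cells). Unstimulated libraries held 7.16 and 6.97 FPKM in Trpm5-/- cells and 20.8 and 17.9 FPKM in wild type. The genotypes thus lay apart without stimulus too, a difference not tested here. Napsa, an aspartic protease, was at 216 and 215 FPKM with LPS, against 124 and 117 FPKM with anti-IgM in Trpm5-/- cells, against 276 and 293 FPKM with LPS, against 264 FPKM in both anti-IgM libraries in wild type. It separated the stimuli by 0.83 in Trpm5-/- cells and by 0.11 in wild type, where it was not called. Its unstimulated libraries held 198 and 219 FPKM in Trpm5-/- cells and 301 and 298 FPKM in wild type, again not tested.

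Ccl3 separated the stimuli less in Trpm5-/- cells (0.44) than in wild type (1.16), with 145 and 150 FPKM under LPS and 65.4 and 65.2 FPKM under anti-IgM in wild type. Without stimulus it was at 47.5 and 51.4 FPKM in Trpm5-/- cells and at 27.9 and 24.4 FPKM in wild type. Cd36, a scavenger receptor of marginal zone B cells, was at 82.9 and 76.5 FPKM with LPS, against 85.9 and 85.1 FPKM with anti-IgM in Trpm5-/- cells, against 51.4 and 54.0 FPKM with LPS, against 84.7 and 84.5 FPKM with anti-IgM in wild type. Among the stimulated libraries, those of wild type with LPS stood apart below the others for Cd36. Amd2, a near-identical copy of the adenosylmethionine decarboxylase gene Amd1 and so uncertain, gave -2.95 in Trpm5-/- cells and 0.87 in wild type. Smaller differences were called for Rasgef1b, a Ras exchange factor (-2.21 in Trpm5-/- cells and -1.67 in wild type), Il21r, the interleukin-21 receptor (1.24 and 0.76 in the same order), and Vps37b, a subunit of the ESCRT-I complex (-0.47 and -1.19). For Lrmp and each gene of this paragraph except Amd2, unstimulated libraries of the genotypes lay apart too, a difference not tested here.

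**Figure D4:**
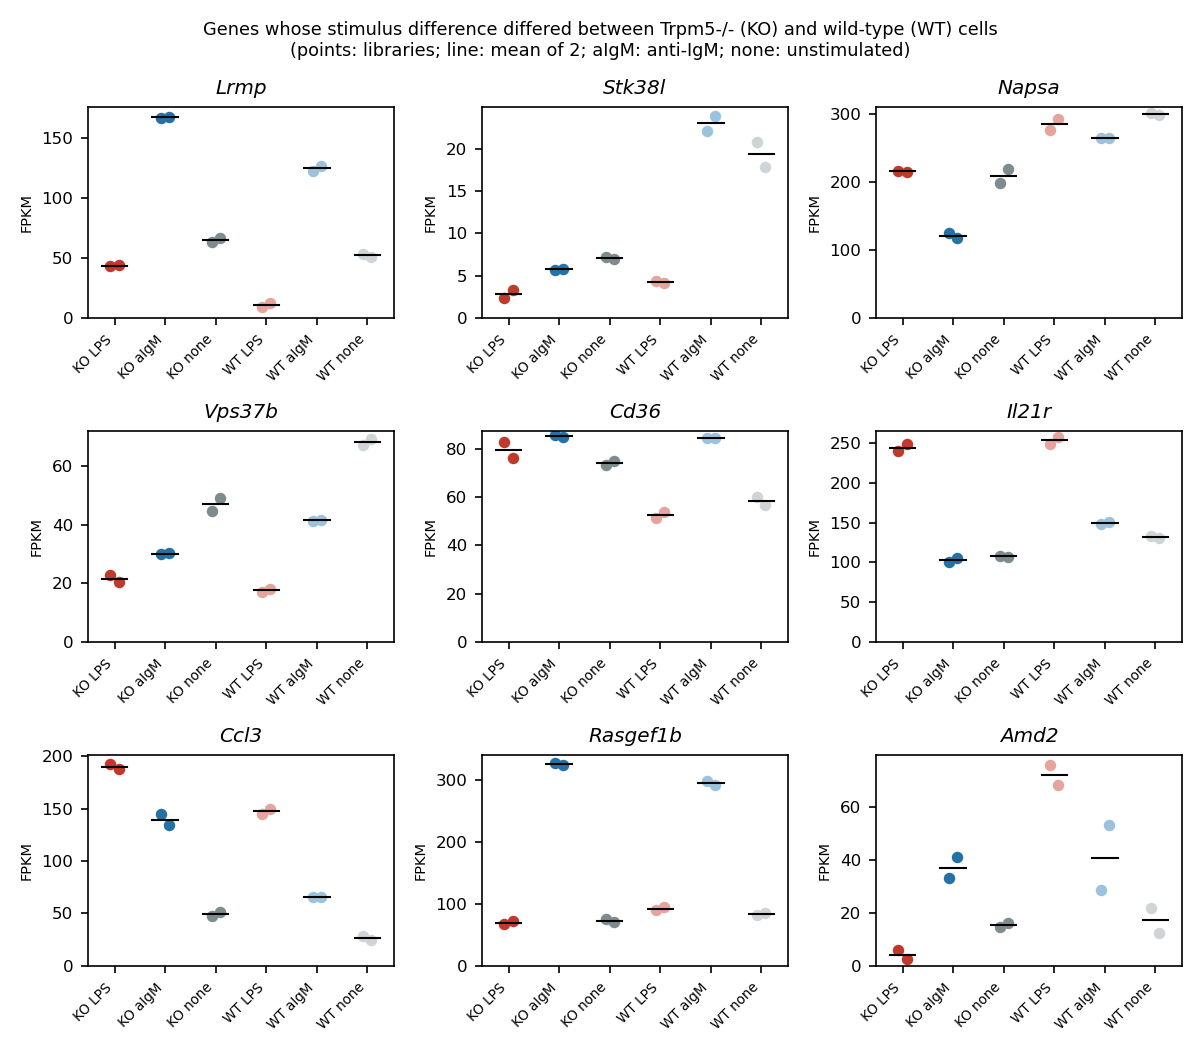
FPKM of 9 genes in every library of the 6 groups, with the mean of 2 as a line, for genes whose stimulus difference was called between genotypes. Lrmp with LPS is at 42.9 and 44.2 FPKM in Trpm5-/- cells and at 8.88 and 12.3 FPKM in wild type, with anti-IgM at 122 FPKM or more in both.

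Of the 12 genes, Lrmp, Mir324, Snord33 and Mir18 kept their call in each alternative run, and the other 8 were called in 5 to 12 of 18 settings. The 3 small RNAs were listed at 0 outside 1 group each, Mir18 outside wild-type anti-IgM libraries. Of the 8 stimulated libraries, leaving out any 1 other than the first LPS library of Trpm5-/- cells gave 4 to 8 genes in place of 12, and leaving out that one gave 17. Unstimulated libraries were not left out for this count. Genes called in opposite directions in the 2 genotypes numbered 9, among them Ccl4 and the NF-kB subunit gene Rel (0.16 in Trpm5-/- cells and -0.26 in wild type), and none of the 9 was called in the interaction.

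**Figure D5:**
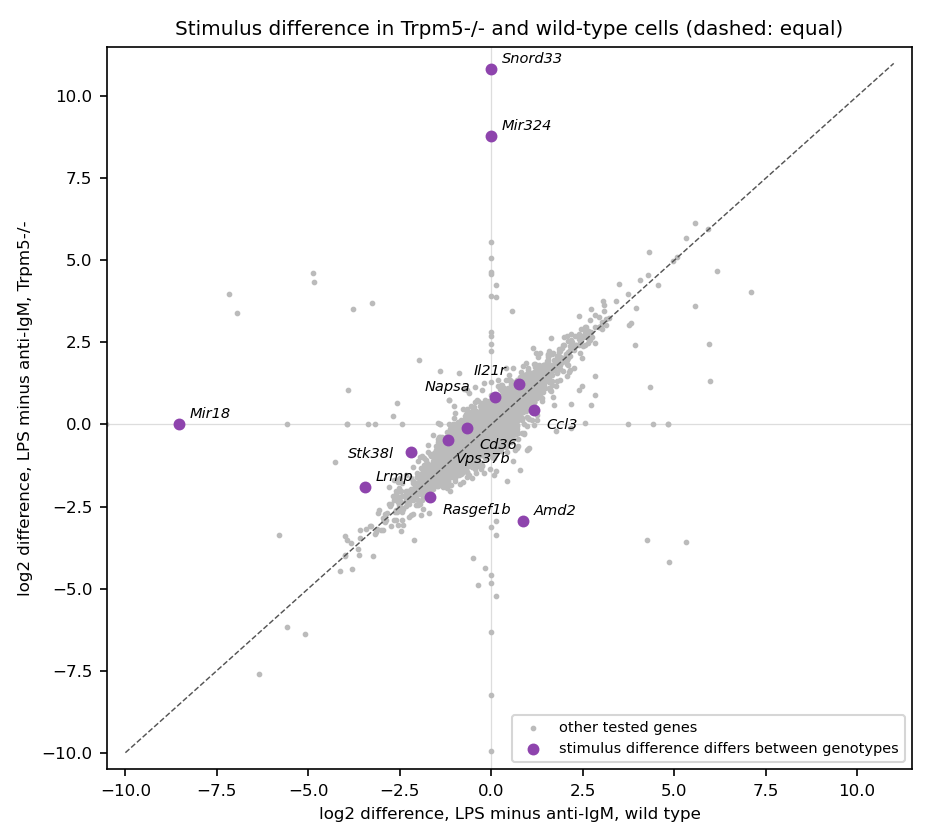
Each point is a tested gene, with its log2 difference between LPS and anti-IgM in wild type (x axis) and in Trpm5-/- cells (y axis), and the dashed line marks equal differences. Most genes lie along the line (r = 0.78), and the 12 called in the interaction are named.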

How the data were processed

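RNA from marginal zone B cells was made into full-length cDNA (SMART-Seq HT) and Nextera libraries, per the labels' protocols. The deposited values were taken as FPKM, a unit inferred from the authors' tools and the values. Per the submitters' processing notes, the authors used mm10, Cufflinks 2.2.1, SAMtools 0.1.19, Bowtie2 2.2.3 and TopHat2 2.0.13. Read totals were not stated in the sources used.

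Here log2(FPKM + 1) was fitted with limma 3.58.1 (R 4.3.3) as 6 group means over 12 libraries, with a mean-variance trend and 6 residual degrees of freedom, for symbols with at least 1 FPKM in 2 libraries. Calls used a Benjamini-Hochberg adjusted p under 0.05 over all tested genes. The fit was tested on simulated data. Positions are from GENCODE M21.

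Named genes were a fixed set, the 12 largest rises and 12 largest falls with at least 5 FPKM and no overlap, in each list the 2 to 6 members with the lowest p, genes called between genotypes and 3 small RNA genes. Cd9 and other cell markers, Trpm4 and the printed promoters were chosen after their values were seen. The comparison, lists and rules were chosen with earlier results of these data known. Alternatives were pseudocount, filters, scaling, variance model, replicate block, the samples fitted and leaving out each library.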

Additional observations from a re-analysis of the deposited data

Results flagged for a closer look

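For 12 genes the difference between LPS and anti-IgM itself differed between genotypes in limma's interaction term. Each value is the log2 difference in Trpm5-/- cells minus that in wild type. It was 1.54 for Lrmp, 1.37 for Stk38l, 0.73 for Vps37b, 0.72 for Napsa, 0.57 for Cd36 and 0.49 for Il21r. It was -0.54 for Rasgef1b, -0.72 for Ccl3 and -3.82 for Amd2, whose near-identical copy Amd1 makes it uncertain. The small RNA genes gave 10.82 for Snord33, 8.78 for Mir324 and 8.53 for Mir18, each listed at 0 in all libraries outside 1 group.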

How the results depend on the processing

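The count of genes called between LPS and anti-IgM in Trpm5-/- cells was 4786 to 5658 under other pseudocounts, filters, scalings and variance models, 5002 with only the groups compared fitted, and 4528 to 4851 with 1 library left out. Of 223 named genes called, 205 kept their call in every alternative run for them. Many of the named genes had been picked for a low p or a large difference in this same comparison. Their stability therefore does not describe the other calls. Cd86 was -0.05 under quantile normalization, on the other side of 0, and the cause was not tested. The count of 12 genes in the interaction was least stable: it was 4 to 17 with 1 of the 8 stimulated libraries left out, and 5 with the replicate number as a block. Whether replicate numbers pair the samples was not labelled, and the values cannot settle it. Correlations of deviations between same-numbered samples ran from -0.172 to 0.199. The highest was between LPS and anti-IgM libraries of Trpm5-/- cells, the groups compared here. The block gave 5557 calls in the main comparison against 5599. Leaving out a library leaves 1 sample in its group, assumed to vary like the others. With 2 libraries a group, simulated 1.5-fold changes were recovered in 32.8% of cases, in a simulation that gave 143 calls. With 5599 genes called in the data the cutoff is less strict, so the share found there may be higher. How many small differences were missed was not tested.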
